A study of Mus musculus with 6 samples.

Results

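Trh, Fndc3c1 and Crhbp are 3 protein-coding genes of the mouse whose transcripts were low in thyroid organoids treated with kinase inhibitors. They were chosen by their measured fall in counts, in particular in the inhibitor-treated organoids, so their own values in the comparisons are a description and carry no test. The 3 genes stand among 25239 listed genes, of which 15256 had enough counts to be tested. Each of the 3 passed that filter, which a gene can pass on its level in the groups where it is high.

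Trh encodes the precursor of thyrotropin-releasing hormone, a small peptide made in the hypothalamus that makes the pituitary release thyrotropin, which in turn drives the thyroid. Crhbp encodes a secreted protein that binds corticotropin-releasing hormone and urocortin and keeps them from their receptors. Fndc3c1 encodes a protein with fibronectin type III domains, and its function is less well described.

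The organoids were grown from a mouse embryonic stem cell line, G4 RosaLuc, in which 5 days of doxycycline (1 µg/ml) switched on Nkx2-1 and Pax8, and 2 weeks of 8-Br-cAMP followed. Every group also carried a Braf^V637E-ERT2 fusion driven by a bovine thyroglobulin promoter, the mouse counterpart of a common thyroid cancer mutation, which stays inactive until 4-hydroxytamoxifen (4OHT) is given. RNA was taken on day 31 from organoids kept in 8-Br-cAMP without 4OHT (cAMP; untreated controls of 4OHT received its ethanol vehicle), with 1 µM 4OHT added (4OHT), or with 4OHT together with 250 nM PD0325901, which inhibits MEK, and 5 µM LY204002, which inhibits PI3K, for 3 days (PD+LY). The 4OHT group had 5 days of 4OHT, whereas its length in PD+LY is not stated alike in the sources used here, so that the inhibitors and the days of 4OHT cannot be told apart in comparisons with PD+LY. A single engineered line was used, wells were pooled within a condition, and the preparations were enriched for follicles without being pure. Each group had 2 libraries. The study's RNA-seq methods call the experiments duplicates, its general statistics section gives at least 3 independent experiments for all data, more than the 2 libraries here, and neither says whether these libraries came from separate differentiations. The p-values measure the spread between these libraries, which may be technical.

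The libraries held 16060341 and 20533878 counts in cAMP, 14898409 and 18246077 in 4OHT, and 19508401 and 20637959 in PD+LY. A single count therefore equalled 0.0486 to 0.0667 CPM, the unit in which each count is scaled to the library total with TMM factors. A floor of 3 counts, 0.146 to 0.200 CPM, was used for single genes, and both the floor and the 95% Poisson intervals given here cover counting error only. Because the RNA was bulk, fewer cells of a type and less RNA per cell cannot be told apart for any value reported here.

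The labelled tissue was checked against its markers. All 10 thyroid genes listed were tested, and thyroglobulin (Tg) was the most abundant of them per length, with 1566 and 1022 CPM in cAMP, 514 and 693 in 4OHT, and 1870 and 907 in PD+LY. Naive pluripotency genes were abundant as well, with a summed level of 3660 and 3469 CPM in cAMP, 4382 and 4172 in 4OHT, and 4336 and 4603 in PD+LY. Dppa5a was the most abundant of them per length, with 1164 and 1131 CPM in cAMP, 1490 and 1402 in 4OHT, and 1503 and 1573 in PD+LY. These libraries thus held transcripts of both kinds.

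Trh had 2256 and 3155 counts in the cAMP libraries, 231 and 318 in the 4OHT libraries, and 26 and 21 in the PD+LY libraries. In CPM these were 142 and 154, then 15.4 and 17.4, then 1.32 and 1.02. The groups formed 3 separate steps without overlap, highest in cAMP and lowest in PD+LY. Group means were 148 ± 8.39, 16.4 ± 1.44 and 1.17 ± 0.214 CPM (SD, n = 2). Per kilobase of exon, Trh went from rank 333 from the top of 24321 genes with a known length in cAMP to rank 4347 in 4OHT and 11817 in PD+LY. The Poisson intervals of the PD+LY libraries, 0.865 to 1.94 and 0.632 to 1.56 CPM, overlapped each other and lay above the floor.

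The log2 difference of Trh was -3.17 (SE 0.13) in 4OHT versus cAMP and -3.81 (SE 0.18) in PD+LY versus 4OHT, comparisons that share the 4OHT libraries. Against cAMP it was -6.97 (SE 0.17) in PD+LY, a 126-fold difference in level. From the pooled counts, 11.1% of the cAMP level was left in 4OHT (95% counting interval 10.2 to 12.1) and 0.787% in PD+LY (0.578 to 1.05). Ordered from the most negative of 15256 log2 differences, Trh stood at position 35 in 4OHT versus cAMP, 49 in PD+LY versus 4OHT and 12 in PD+LY versus cAMP.

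Crhbp, the binding protein, took another course. It had 103 and 154 counts in cAMP, 115 and 134 in 4OHT, and 6 and 6 in PD+LY. The levels were 6.48 and 7.51 CPM in cAMP, 7.67 and 7.35 in 4OHT, and 0.306 and 0.292 in PD+LY. The cAMP and 4OHT libraries overlapped, and both PD+LY libraries lay below all others with the same number of counts. Group means were 6.99 ± 0.726, 7.51 ± 0.228 and 0.299 ± 0.00977 CPM (SD, n = 2), and the small SD of the last is below what counting error alone would give, since 6 counts have a Poisson interval of 2.20 to 13.1 counts.

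The log2 difference of Crhbp was 0.10 (SE 0.22) in 4OHT versus cAMP, within 1 standard error of 0. The pooled counts put the 4OHT level at 106% of cAMP (95% counting interval 88.9 to 127), and without the library cAMP replicate 1 the log2 difference was -0.0010. In PD+LY the log2 difference was -4.62 (SE 0.33) versus 4OHT and -4.52 (SE 0.33) versus cAMP. This left 3.98% of the 4OHT level (95% counting interval 2.03 to 7.08). Crhbp held position 9689 from the most negative of all tested genes in 4OHT versus cAMP, and position 24 in PD+LY versus 4OHT.

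Fndc3c1 had 93 and 193 counts in cAMP, 10 and 18 in 4OHT, and 2 and 4 in PD+LY. The CPM values were 5.85 and 9.41, then 0.667 and 0.987, then 0.102 and 0.195. The 3 groups did not overlap, but the cAMP libraries differed from each other, and PD+LY replicate 1 lay under the floor of 3 counts. The Poisson intervals of 4OHT replicate 1 (4.80 to 18.4 counts) and of the PD+LY libraries (0.242 to 7.22 and 1.09 to 10.2 counts) overlapped. Group means were 7.63 ± 2.51, 0.827 ± 0.226 and 0.148 ± 0.0655 CPM (SD, n = 2).

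The log2 difference of Fndc3c1 was -3.18 (SE 0.38) in 4OHT versus cAMP, close in size to that of Trh. In PD+LY versus 4OHT it was -2.44 (SE 0.63), with 17.7% of the 4OHT level left and a 95% counting interval of 6.0 to 43.6%. Against cAMP it was -5.62 (SE 0.48) in PD+LY, with 1.90% left (0.692 to 4.19). Its positions from the most negative were 33, 192 and 25 in these comparisons.

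**Figure D1:**
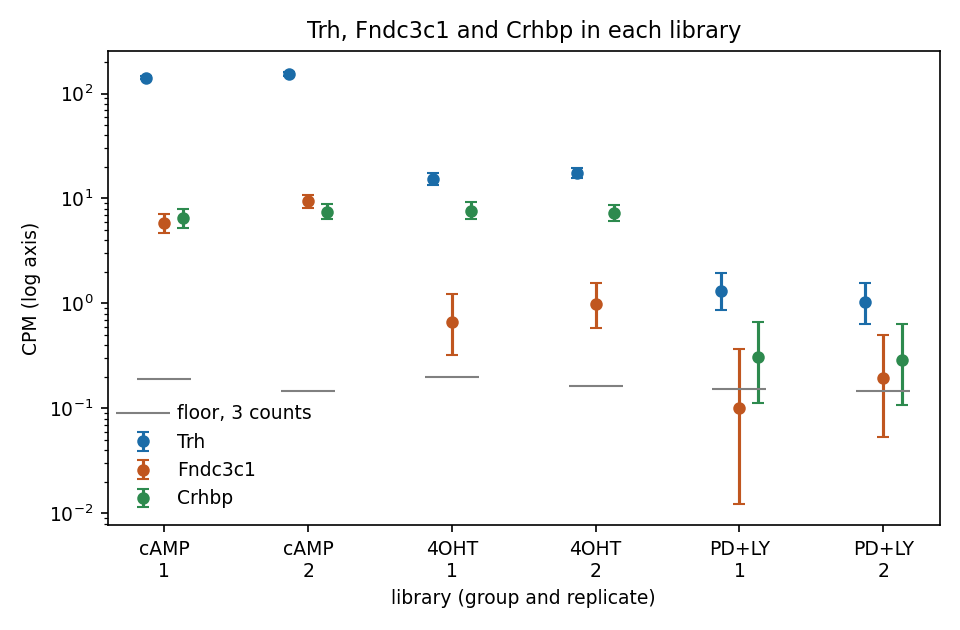
CPM on a log axis (y) of Trh, Fndc3c1 and Crhbp in each of the 6 libraries (x), with points for the measured level, bars for the exact 95% Poisson interval and grey dashes for the floor of 3 counts. Trh steps down from 142 and 154 CPM in cAMP to 1.32 and 1.02 in PD+LY, Crhbp is low in the PD+LY libraries alone, and Fndc3c1 reaches the floor there.

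Levels of different genes were compared per kilobase of exon. In cAMP the order was Trh (107 ± 6.06 CPM per kb), Crhbp (3.88 ± 0.403) and Fndc3c1 (1.21 ± 0.398), and no 2 of these ranges overlapped. The order was the same in 4OHT, with 11.9 ± 1.04, 4.17 ± 0.126 and 0.131 ± 0.0359. In PD+LY it was 0.847 ± 0.155, 0.166 ± 0.00543 and 0.0235 ± 0.0104 (SD, n = 2 throughout). Within single libraries the length-scaled Trh level was 28.5 and 26.6 times that of Crhbp in cAMP, 2.61 and 3.09 times in 4OHT, and 5.64 and 4.55 times in PD+LY. The ratio of Trh to Fndc3c1 was 111 and 74.6 in cAMP, 105 and 80.6 in 4OHT, and 59.3 and 24.0 in PD+LY, so that cAMP and 4OHT overlapped and both PD+LY libraries, with 2 and 4 Fndc3c1 counts, lay below them.

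Across all tested genes, 408 of 15256 were called in 4OHT versus cAMP (2.67%), of which 230 were lower (1.51%) and 178 higher (1.17%). Called means an adjusted p under 0.05 in edgeR's quasi-likelihood test, with Benjamini-Hochberg adjustment over all tested genes, and at least a 2-fold difference. In PD+LY versus 4OHT 7.26% were called, 4.9% lower and 2.35% higher. In PD+LY versus cAMP 9.24% were called, 6.24% lower and 3% higher. The first count fell when any 1 of the cAMP and 4OHT libraries was left out, and that for PD+LY versus 4OHT fell most without 4OHT replicate 2. Leaving a library out leaves 1 library in its group, so these falls do not measure the weight of a single library. The comparisons share libraries in pairs, so their values are given side by side only.

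The other genes of the thyrotropin-releasing hormone axis were mostly near the floor. The receptor Trhr had 5 and 4 counts in cAMP, 0 and 0 in 4OHT, and 4 and 6 in PD+LY, and Trhr2 had at most 2 in any library. Trhde, the ectoenzyme that degrades the hormone, had 0 and 0 counts in cAMP, 6 and 4 in 4OHT, and 10 and 2 in PD+LY. The pituitary hormone genes Cga and Prl had 0 counts in all 6 libraries, where the floor allows up to 0.200 CPM, and Tshb at most 2. Pgpep1 and Prep of this list were abundant. Pgpep1 had 652 and 809 counts in cAMP, 807 and 952 in 4OHT, and 821 and 1058 in PD+LY. Prep had 1308 and 1779, 1295 and 1458, and 2362 and 2889 (0.65 in PD+LY versus 4OHT, edgeR adjusted p = 0.00127, under 2-fold). Of 9 listed genes 3 were tested. In edgeR Tshr, the thyrotropin receptor, was the single call, higher in PD+LY than in 4OHT (log2 fold change 2.08, edgeR adjusted p = 0.000801, both libraries above both), and the value was 2.86 without 4OHT replicate 2. DESeq2 also called Tshr lower in 4OHT versus cAMP (-1.11, DESeq2 adjusted p = 0.0262), where it was not called in edgeR (-1.10, edgeR adjusted p = 0.0594).

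Peptide hormones such as this are cut from precursors, amidated and stored in granules. All 13 listed genes of that machinery were tested, and 0 were lower and 2 higher in 4OHT versus cAMP, with a median log2 fold change of 0.07 against -0.0021 over all tested genes. The calls there were Pcsk1n, a precursor of convertase-binding peptides (74 and 195 counts in cAMP, 274 and 513 in 4OHT, log2 fold change 1.69, edgeR adjusted p = 0.00987), and Scg2, a granin (98 and 127, then 213 and 277, log2 fold change 1.25, edgeR adjusted p = 0.00663). Pcsk1n moved to 2.33 without cAMP replicate 2 and was not called without 4OHT replicate 2 (1.35), and Scg2 was not called without either 4OHT library (1.30 and 1.20). In PD+LY versus 4OHT 0 of the 13 were called in edgeR or DESeq2, and 3 had an unadjusted edgeR p under 0.05. In PD+LY versus cAMP 1 was higher, Scg2 (1.02, edgeR adjusted p = 0.00624), a call that did not hold with upper quartile scaling (0.989), with the replicate block (0.996) or without PD+LY replicate 1 (0.64). The convertases Pcsk1 (18 and 9 counts in 4OHT, 18 and 16 in PD+LY) and Pcsk2 (14 and 8, then 12 and 8) were low throughout, and the amidating enzyme Pam had 969 and 1349, then 1618 and 1604.

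Of the corticotropin-releasing hormone family, the ligand genes Crh, Ucn and Ucn3 had 0 counts in every library. Ucn2 had 5 and 2 counts in cAMP and 0 in the 4 other libraries. The receptor Crhr1 had at most 3 counts in any library, and Crhr2 had 6 and 13 in cAMP, 27 and 9 in 4OHT, and 14 and 6 in PD+LY. Of the 8 genes listed 2 were tested, Crhr2 and Pomc, and 0 were called in the 3 comparisons in edgeR or DESeq2, with 0 at an unadjusted edgeR p under 0.05. Transcripts of Crh and Ucn, the ligands of Crhbp named above, were thus not detectable at this depth.

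Fndc3c1 belongs to a family of genes with fibronectin type III domains. Its nearest relatives outside the X chromosome were abundant. Fndc3a had 2361 and 2749 counts in cAMP, 1683 and 2413 in 4OHT, and 2550 and 1963 in PD+LY, and Fndc3b had 1268 and 1432, 1266 and 1588, and 2038 and 1747. Neither was called in any of the 3 comparisons, and log2 fold changes lay between -0.33 and 0.34. Of 10 listed family genes 7 were tested, with 0 called in 4OHT versus cAMP (0 in DESeq2, and 1 at an unadjusted edgeR p under 0.05), 1 higher in PD+LY versus 4OHT, and 1 higher and 1 lower in PD+LY versus cAMP. Fndc1 was the higher one (1.06 versus 4OHT, edgeR adjusted p = 0.00292, and 1.53 versus cAMP, edgeR adjusted p = 0.000213). Its call versus 4OHT did not hold without 4OHT replicate 2 (0.93) or PD+LY replicate 1 (0.74). Fndc9 was the lower one (-1.58, edgeR adjusted p = 0.0295), and it was -2.48 without PD+LY replicate 1 and not called without cAMP replicate 1 (-1.69), cAMP replicate 2 (-1.44) or PD+LY replicate 2 (-1.02).

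Other neuropeptide genes were set beside Trh. Of 23 listed, 9 were tested. These genes too can pass the count filter on their level in the groups where they are high. In 4OHT versus cAMP 1 was higher and 1 lower. In PD+LY versus 4OHT 0 were higher and 4 lower (3 in DESeq2), and in PD+LY versus cAMP 0 were higher and 6 lower (5 in DESeq2). Over all tested genes 1.51%, 4.9% and 6.24% were called lower in the 3 comparisons. The list's median log2 fold change was 0.01, -1.31 and -1.42 in these comparisons, against -0.0021, 0.01 and 0.0049 over all tested genes. Nts, Avp, Oxt and Hcrt, among them hormones of the hypothalamus, had 0 counts in all libraries.

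Grp, gastrin-releasing peptide, fell in 4OHT, as Trh was lower there. It had 97 and 123 counts in cAMP, 16 and 17 in 4OHT, and 6 and 10 in PD+LY (log2 fold change -2.59 in 4OHT versus cAMP, edgeR adjusted p = 0.000965, and -3.90 in PD+LY versus cAMP, edgeR adjusted p = 2.63e-05). Calca, the gene of calcitonin and its related peptide, had 77 and 114, 54 and 62, and 6 and 17 counts, and was called in PD+LY versus 4OHT (-2.60, edgeR adjusted p = 0.000945, and -3.49 without PD+LY replicate 2) and versus cAMP (-3.18, and -4.06 without PD+LY replicate 2). Both PD+LY libraries lay below all other libraries for Calca.

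Npy, neuropeptide Y, rose in 4OHT, from 51 and 53 counts to 175 and 222 (log2 fold change 2.05, edgeR adjusted p = 0.000706), and fell to 32 and 21 in PD+LY (-3.17 versus 4OHT, edgeR adjusted p = 2.31e-05). Against cAMP its value in PD+LY was -1.12, a call that did not hold without cAMP replicate 1 (-0.96) or PD+LY replicate 2 (-0.81), or with the 2 groups alone in the fit (-1.11). Sst, somatostatin, had 53 and 81 counts in cAMP, 31 and 26 in 4OHT, and 2 and 14 in PD+LY. Its value was -2.11 in PD+LY versus 4OHT (edgeR adjusted p = 0.0234), -1.34 without PD+LY replicate 1 and -4.00 without PD+LY replicate 2, and it was not called without 4OHT replicate 1 (-1.83), 4OHT replicate 2 (-2.36) or PD+LY replicate 1. Against cAMP it was -3.18 (edgeR adjusted p = 0.00138), -2.41 without PD+LY replicate 1 and -5.07 without PD+LY replicate 2. Penk and Agrp, which complete these counts, are named here after their values were seen. Penk, the enkephalin precursor, had 204 and 294 counts in cAMP, 146 and 166 in 4OHT, and 89 and 116 in PD+LY, and was lower in PD+LY than in cAMP (-1.42, edgeR adjusted p = 0.000274). Agrp had 19 and 18, 18 and 16, and 6 and 6, with -1.77 in PD+LY versus 4OHT (edgeR adjusted p = 0.0473) and -1.76 versus cAMP (edgeR adjusted p = 0.0422), and neither call held in DESeq2 (-1.80 and -1.79) or without any 1 of the 6 libraries (-1.98 to -1.53 and -1.97 to -1.53).

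**Figure D2:**
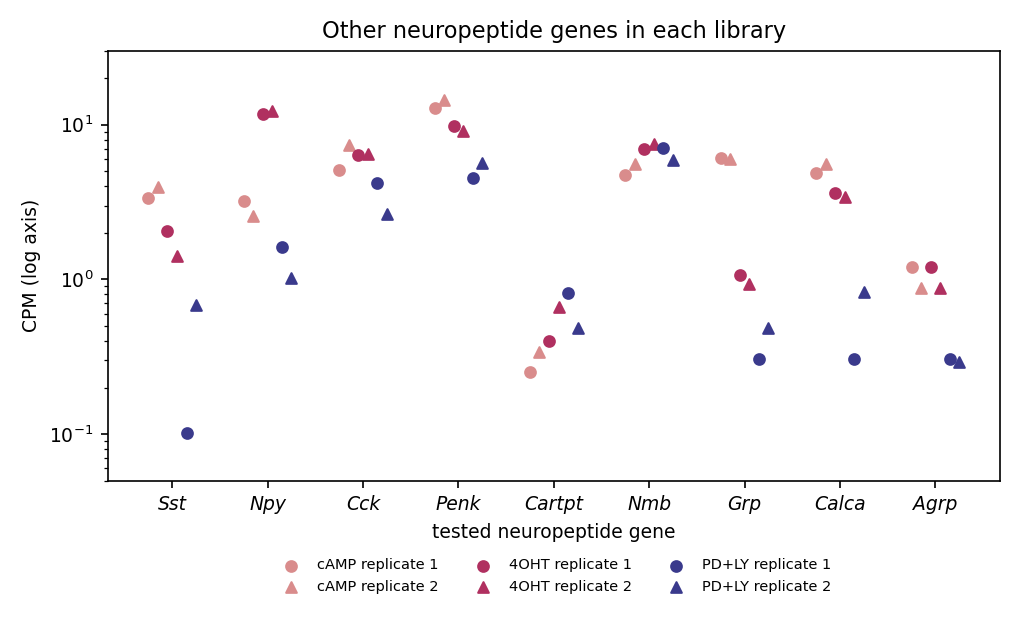
CPM on a log axis (y) of the 9 tested genes of the neuropeptide list (x), with 1 point per library, coloured by group and shaped by replicate. Npy is highest in the 4OHT libraries, Grp is low in 4OHT and PD+LY, and Calca and Sst are lowest in PD+LY.

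Factors known to act on the Trh gene were listed as well. Of 11 genes 9 were tested. In edgeR and in DESeq2 alike 0 were called in 4OHT versus cAMP and 0 in PD+LY versus 4OHT, with 6 and 4 at an unadjusted edgeR p under 0.05, and 1, Arnt2, was lower in PD+LY versus cAMP (log2 fold change -1.22, edgeR adjusted p = 0.000493). Sim1, which pairs with Arnt2 in hypothalamic neurons, had 6 counts in cAMP replicate 1 and 0 in the 5 other libraries, and Otp had at most 3. The thyroid hormone receptors Thra and Thrb, the glucocorticoid receptor gene Nr3c1, and Creb1 were not called in any comparison. The largest falls of the list in 4OHT versus cAMP, named here after their values were seen, were those of Nhlh2 (22 and 13 counts in cAMP, 2 and 3 in 4OHT, 6 and 4 in PD+LY, -2.66, edgeR adjusted p = 0.0559) and Pou3f2 (14 and 11, 0 and 4, and 6 and 4, -2.49, edgeR adjusted p = 0.132), at few counts and not called.

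The genes that ERK signaling switches on, feedback inhibitors and ETS factors, bear on the inhibitor arm, since PD0325901 blocks the kinase above ERK. Of 15 tested, 0 were called in 4OHT versus cAMP in edgeR or DESeq2, where 12 had an unadjusted edgeR p under 0.05 and differences under 2-fold or short of the adjusted threshold. In PD+LY 10 were lower and 0 higher versus 4OHT (median log2 fold change -2.04 against 0.01 over all tested genes), and 11 were lower in PD+LY versus cAMP. Spry4 had 338 and 356 counts in cAMP, 316 and 367 in 4OHT, and 5 and 5 in PD+LY (-6.33 versus 4OHT, edgeR adjusted p = 1.18e-07). Etv4 had 351 and 411, 552 and 667, and 12 and 8 (-6.18, edgeR adjusted p = 2.98e-08), and Dusp4 had 1074 and 1659, 830 and 1125, and 67 and 88 (-3.92, edgeR adjusted p = 1.18e-07). Fosl1 had 11 and 30 counts in 4OHT and 0 in PD+LY, with a log2 fold change of -7.47, and was not called without 4OHT replicate 2, where the value was -6.76 (edgeR adjusted p = 0.0592). Among FOXO targets, read because LY204002 blocks PI3K, 12 were tested, with 0 called in 4OHT versus cAMP (0 in DESeq2, 7 at an unadjusted edgeR p under 0.05). In each of the other comparisons 1 was lower and 0 higher, Bcl6 (-1.36 versus 4OHT) and Ccng2 (-1.26 versus cAMP). Over all tested genes 4.9% and 6.24% were called lower there. The list's median log2 fold change was -0.08 in PD+LY versus 4OHT and -0.38 in PD+LY versus cAMP.

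Genes whose course over the 6 libraries was closest to each of the 3 were found from log2 CPM (prior count 2) centred on the mean of the cAMP libraries, as the root mean square difference. They were selected by this likeness, so their own changes are not tested here, and nothing about shared control follows. For Crhbp the closest genes were Sftpb (0.17), Dusp4 (0.29), Optc (0.35), Cxcl15 (0.40) and Cpne7 (0.54). Sftpb, which encodes a surfactant protein of the lung, had 2852 and 3426 counts in cAMP, 2954 and 3916 in 4OHT, and 230 and 179 in PD+LY, and Cxcl15, a chemokine of the lung, had 50 and 36, 43 and 66, and 1 and 0. Dusp4, a phosphatase that acts on ERK, is in the ERK list as well.

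Genes close to Fndc3c1 included Tal1 (0.43), Asb4 (0.47), Spink1 (0.54) and Tmem154 (0.56). Tal1, a transcription factor of blood formation, had 48 and 50 counts in cAMP, 2 and 3 in 4OHT, and 0 and 0 in PD+LY. Asb4 had 53 and 64, 4 and 9, and 0 and 3. These genes, like Fndc3c1, were at or near the floor in PD+LY, where the prior count holds the scale up and brings low genes together.

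Trh was less closely matched, by genes that included Fndc3c1 at 1.18, Tal1 at 1.27, Spink1 at 1.32 and Clca4a at 1.40. Its level in cAMP was high enough for a fall that genes with few counts cannot show on this scale. Among the 3 genes the distance between Trh and Fndc3c1 was 1.18, between Fndc3c1 and Crhbp 1.88, and between Trh and Crhbp 2.47.

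**Figure D3:**
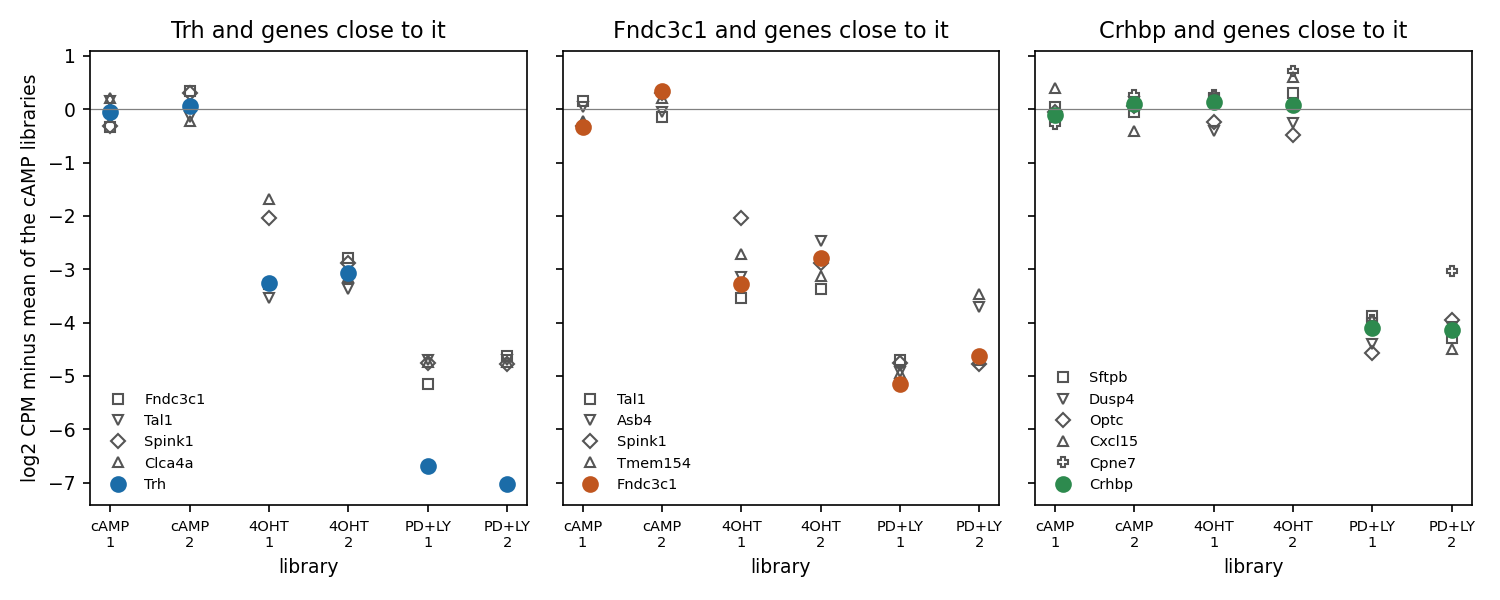
Log2 CPM (prior count 2) minus the mean of the cAMP libraries (y) in the 6 libraries (x) for Trh, Fndc3c1 and Crhbp (filled points) and genes close to each (open points). Crhbp and its closest genes are low in PD+LY alone, and Trh lies below its closest genes in PD+LY.

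Markers of other cell types were read beside these values. Of 10 primed epiblast genes 6 were lower and 0 higher in 4OHT versus cAMP, with a median log2 fold change of -1.42, and 6 were lower in PD+LY versus cAMP. In PD+LY versus 4OHT 1 was lower, Pou3f1 (-1.995), while 6 of 10 had a negative log2 fold change and the median was -0.18. In 4OHT versus cAMP the call of Pou3f1 (-1.42) did not hold without cAMP replicate 2 (-1.05) or 4OHT replicate 1 (-1.23), nor that of Sox3 (-2.31) without 4OHT replicate 1 (-1.86), while Sox3 was -3.06 without 4OHT replicate 2. The list's summed level was 828 and 913 CPM in cAMP, 491 and 487 in 4OHT, and 388 and 467 in PD+LY, with Utf1 the most abundant per length. Fgf5, a marker of the primed state, had 184 and 352 counts in cAMP, 15 and 40 in 4OHT, and 28 and 24 in PD+LY (-3.14 in 4OHT versus cAMP, edgeR adjusted p = 0.000238, and -3.84 without 4OHT replicate 2). Cer1 had 104 and 308, 0 and 2, and 0 and 0. All 10 genes of the list had counts. In 4OHT versus cAMP these markers moved in the same direction as Trh and Fndc3c1, and their part in the result was not tested.

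Of the 9 tested endothelial genes 4 were lower in 4OHT versus cAMP, namely Cdh5, Cldn5, Tie1 (54 and 69 counts in cAMP, 4 and 6 in 4OHT, log2 fold change -3.46, edgeR adjusted p = 0.00249) and Kdr (158 and 220, then 23 and 47, -2.31, edgeR adjusted p = 0.000688). Cdh5 was not called without 4OHT replicate 1 (-1.47), and Cldn5 (-1.98) was called neither in DESeq2 (-2.01) nor without any 1 of the cAMP and 4OHT libraries (-2.49 to -1.64). Tie1, Kdr and Cldn5 were the 3 lower in PD+LY versus cAMP, where 8 of 9 had a negative log2 fold change, with a median of -0.99, and in PD+LY versus 4OHT 1 was lower, Esam (-1.05, named here after its value was seen), which was not called without 4OHT replicate 2 (-0.92) or PD+LY replicate 2 (-0.75). The list's summed level was 230 and 228 CPM in cAMP, 247 and 250 in 4OHT, and 215 and 219 in PD+LY. Most of it came from Pecam1, with 135 and 128 CPM in cAMP, 171 and 168 in 4OHT, and 148 and 155 in PD+LY. Pecam1 was not called, and the sum says little about the other genes of the list. No gene of the list was at 0 in all 6 libraries, but Emcn, which was not tested, had 0 counts in both PD+LY libraries. Neuron genes gave 1 lower call of 10 tested in 4OHT versus cAMP, Gad1 (-1.36, edgeR adjusted p = 0.0189), which was not called without cAMP replicate 1 (-1.36), cAMP replicate 2 (-1.36) or 4OHT replicate 1 (-1.03). In 4OHT versus cAMP all 10 had a negative log2 fold change, with a median of -0.85. In PD+LY versus 4OHT 3 were lower and 0 higher, with Gad1 (-1.55) not called without 4OHT replicate 2 (-1.08), while 4 of 10 had a negative log2 fold change and the median was 0.40 against 0.01 over all tested genes. Again 3 were lower in PD+LY versus cAMP, where 9 of 10 had a negative log2 fold change and the median was -1.06. Their summed level was 148 and 128, 114 and 108, and 57.6 and 61.4 CPM, with Tubb3 the most abundant per length in cAMP and PD+LY and Stmn2 in 4OHT, and the fall of the sum in PD+LY came largely from Stmn2 (1117 and 1368 counts in 4OHT, 507 and 607 in PD+LY). Elavl3, an RNA-binding protein of neurons, had 260 and 287, 178 and 215, and 56 and 66 counts (-1.96 in PD+LY versus 4OHT, edgeR adjusted p = 5.73e-05). The part of endothelial or neuron transcripts in the values of Trh, Fndc3c1 and Crhbp was not tested.

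Several defining markers of the tissues in which Trh is best known were at or near the floor. Of 9 hypothalamus genes 4 were tested and 0 called in edgeR or DESeq2 in the 3 comparisons, with 1, 0 and 1 at an unadjusted edgeR p under 0.05, and their summed level was 6.67 and 7.60 CPM in cAMP, 4.94 and 7.30 in 4OHT, and 6.21 and 6.76 in PD+LY, with Rax and Six3 the most abundant per length, at 0.425 and 0.478 CPM per kb in cAMP, 0.469 and 0.467 in 4OHT, and 0.542 and 0.453 in PD+LY. Pituitary genes at 0 in all libraries included Pou1f1, Lhx4 and Tbx19, and the summed level (33.8 and 35.9 CPM in cAMP, 65.8 and 70.9 in 4OHT, 61.6 and 73.8 in PD+LY) came largely from Hesx1, which pluripotent cells also express and which rose in 4OHT versus cAMP (1.37, edgeR adjusted p = 0.000119). Of 10 endocrine pancreas genes Ins1 and Pax4 were at 0, and Ins2, Gcg and Pdx1 had at most 2 counts, while 3 were tested, with 0 called in 4OHT versus cAMP in edgeR or DESeq2 and 0 at an unadjusted edgeR p under 0.05. Neurog3, a transcription factor of endocrine precursors and the most abundant of the list per length in PD+LY, had 10 and 43 counts in cAMP, 14 and 21 in 4OHT, and 79 and 91 in PD+LY. It was higher in PD+LY versus 4OHT (2.00, edgeR adjusted p = 0.00898), a call that did not hold without 4OHT replicate 1 (1.87) or 4OHT replicate 2 (2.17), and versus cAMP (1.58, edgeR adjusted p = 0.0196), where it did not hold without cAMP replicate 1 (1.01) or PD+LY replicate 2 (1.51) and was 2.74 without cAMP replicate 2. Nkx6-1 had 6 and 20, 17 and 21, and 5 and 2, and was lower in PD+LY versus 4OHT (-2.67, edgeR adjusted p = 0.0200, -3.46 without PD+LY replicate 1), a call that did not hold without 4OHT replicate 1 (-2.67), 4OHT replicate 2 (-2.65) or PD+LY replicate 2 (-2.14). The list's summed level was 4.78 and 6.97 CPM in cAMP, 4.34 and 5.27 in 4OHT, and 7.89 and 8.12 in PD+LY. Of 8 spermatid genes 0 were tested, Prm2 and Acrv1 were at 0, and their summed level was at most 0.934 CPM in any library.

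The remaining marker lists were tested in the same way. Neural progenitor genes gave 1 lower call of 10 in 4OHT versus cAMP, Sox1 (-1.29, edgeR adjusted p = 0.0257, not called without any 1 of the cAMP and 4OHT libraries, -1.42 to -1.17), 1 in PD+LY versus 4OHT and 3 in PD+LY versus cAMP. The call in PD+LY versus 4OHT was Hes5 (4 and 14 counts in 4OHT, 0 and 1 in PD+LY, -4.09, edgeR adjusted p = 0.0220), which was not called without 4OHT replicate 2 (-3.11) or PD+LY replicate 1 (-3.28) and was -6.27 without PD+LY replicate 2. In PD+LY versus 4OHT 5 of the 10 had a negative log2 fold change, with a median of -0.04. Of 4 genes at an unadjusted edgeR p under 0.05 there, 3 were higher and 1 lower. Sox2 was 0.33 in that comparison (edgeR adjusted p = 0.0154, under 2-fold). The list's summed level was 364 and 349, 314 and 330, and 403 and 418 CPM. Most of it came from Sox2, so the sum says little about the other genes of the list. Mesenchymal genes gave 1 higher call in 4OHT versus cAMP, 3 higher and 2 lower in PD+LY versus 4OHT (3 and 1 in DESeq2), and 5 higher and 1 lower in PD+LY versus cAMP. The higher call of Col1a2 in PD+LY versus 4OHT (1.11) did not hold without PD+LY replicate 1 (0.95). The list's summed level went from 1197 and 1301 CPM in cAMP to 2247 and 2364 in 4OHT and 4852 and 4112 in PD+LY, Col1a1 being the most abundant per length. Visceral endoderm genes gave 0 calls of 9 in 4OHT versus cAMP (0 in DESeq2, 3 at an unadjusted edgeR p under 0.05). In PD+LY versus 4OHT 2 were lower, Amn (-1.94, edgeR adjusted p = 0.000234) and Hnf4a (-1.29, and -0.99 without PD+LY replicate 1). Ttr, the most abundant per length, was 0.49 there (edgeR adjusted p = 0.00180, under 2-fold), while 7 of 9 had a negative log2 fold change. In PD+LY versus cAMP 3 were lower (2 in DESeq2). The list's summed level was 470 and 471 CPM in cAMP, 425 and 471 in 4OHT, and 475 and 469 in PD+LY. Thyroid genes gave 2 lower calls of 10 in 4OHT versus cAMP, Tg among them (-1.10, edgeR adjusted p = 0.0304), and 6 higher in PD+LY versus 4OHT, again with Tg (1.20, edgeR adjusted p = 0.00913). The lower call of Tg did not hold in DESeq2 (-1.10) or without cAMP replicate 1 (-0.76), 4OHT replicate 1 (-0.90) or 4OHT replicate 2 (-1.33), and the higher one did not in DESeq2 (1.20) or without 4OHT replicate 1 (1.00) or PD+LY replicate 1 (0.59). In PD+LY versus cAMP 2 thyroid genes were higher (1 in DESeq2), Foxe1 (1.01) and Iyd (1.07). The call of Foxe1 did not hold in every setting that kept all libraries. That of Iyd did not hold without cAMP replicate 2 (0.84) or PD+LY replicate 1 (0.62). Naive pluripotency genes gave 1 higher call of 10 in 4OHT versus cAMP, Tbx3 (1.16, edgeR adjusted p = 6.39e-05), and 0 in PD+LY versus 4OHT in edgeR or DESeq2, with 4 at an unadjusted edgeR p under 0.05. In PD+LY versus cAMP 1 was higher, Klf2 (1.02). Its call did not hold with upper quartile scaling (0.993), or without cAMP replicate 1 (0.93) or PD+LY replicate 2 (0.82). The part of any of these cell types was not tested.

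All 3 genes lie on the minus strand in GRCm38 (GENCODE M21). Trh spans chr6:92242061-92244650 and has 3 exon blocks and 1384 exon bases, Crhbp spans chr13:95431371-95444924 with 7 blocks and 1800 bases, and Fndc3c1 spans chrX:106420041-106485401 with 30 blocks and 6315 bases. No exon of another annotated gene overlaps theirs. Trh and Crhbp transcripts had no similar transcript of another gene by nucleotide search. Fndc3c1 did: the X-linked gene Fnd3c2, 164.7 kb away, was 91.0% identical over 2079 bases, and the pseudogenes Gm6325 91.2% over 2078 bases, Gm5133 90.4% over 1181 and Gm14852 93.0% over 641. Of 6 similar genes, the other two were less alike, Fndc3a at 65.1% and Gm14876 at 79.0%. Reads that fall alike in these copies could not be told apart, so the Fndc3c1 counts are uncertain to that extent. Fnd3c2 itself had 15 and 9 counts in cAMP, 16 and 6 in 4OHT, and 8 and 12 in PD+LY, and was not called.

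Neighbouring genes were read to see whether the low values extend along the chromosome. Of the 18 nearest coding genes, 3 on each side of each gene, 14 were tested. In 4OHT versus cAMP 0 were called in edgeR or DESeq2, with 4 at an unadjusted edgeR p under 0.05. In PD+LY versus 4OHT 1 of the 14 was called, and in PD+LY versus cAMP 1, where 7.26% and 9.24% of all tested genes were called. The first was Prickle2 beside Trh (log2 fold change 1.17, higher) and the other Pgk1 beside Fndc3c1 (-1.18). All 3 tested genes at lower coordinates of Crhbp and both tested genes at higher ones, F2rl1 and F2r, were not called in any comparison.

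The promoter sequences are shown because the 3 genes were low together in PD+LY while taking different courses in 4OHT. They are from RefSeq in the build GRCm38.p6, 250 bases before to 50 after the transcription start, read 5′ to 3′ on the minus strand, at chr6:92244601-92244900 (Trh), chr13:95444782-95445081 (Crhbp) and chrX:106485180-106485479 (Fndc3c1). The RefSeq start equals the first annotated GENCODE base for Trh and lies 93 bases inside it for Crhbp and 172 bases inside it for Fndc3c1. Capitals mark matches to any motif searched on both strands.
Trh: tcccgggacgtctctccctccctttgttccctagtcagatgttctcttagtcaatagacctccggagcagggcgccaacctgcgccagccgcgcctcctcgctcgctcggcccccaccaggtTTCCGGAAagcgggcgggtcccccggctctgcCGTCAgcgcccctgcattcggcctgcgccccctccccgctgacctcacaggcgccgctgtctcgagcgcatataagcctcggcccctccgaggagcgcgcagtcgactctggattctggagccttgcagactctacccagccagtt
Crhbp: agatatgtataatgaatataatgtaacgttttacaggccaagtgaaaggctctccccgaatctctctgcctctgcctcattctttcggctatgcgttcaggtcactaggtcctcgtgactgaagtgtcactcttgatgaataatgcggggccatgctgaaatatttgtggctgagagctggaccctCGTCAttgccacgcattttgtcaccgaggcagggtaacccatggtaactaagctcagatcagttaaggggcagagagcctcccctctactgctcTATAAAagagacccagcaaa
Fndc3c1: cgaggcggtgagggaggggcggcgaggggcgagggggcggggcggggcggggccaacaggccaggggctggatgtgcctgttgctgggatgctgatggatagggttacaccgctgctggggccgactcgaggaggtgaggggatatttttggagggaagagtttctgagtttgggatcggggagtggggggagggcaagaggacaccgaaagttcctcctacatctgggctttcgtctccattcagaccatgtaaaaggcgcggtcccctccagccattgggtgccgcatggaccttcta

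The motifs searched, with the share of 32851 promoters of the same length that hold each, were the cAMP response element TGACGTCA (1.79%), its core CGTCA (20.8%), AP-1 TGANTCA (7.81%), ETS CCGGAA (14.9%), FOXO GTAAACA (3.65%), octamer ATGCAAAT (1.74%), SOX ACAATGG (3.66%), NKX2-1 CTCAAG (15.9%), TCF CTTTGAA (5.14%) and the TATA box TATAAA (13.6%). The core lies within the full element. The Trh promoter held a core beginning at position -96 and overlapping ETS matches at -128 on the opposite strand and -126 on the strand shown. The Crhbp promoter held a core at -64 and a TATA box match at position 31 after the start. The Fndc3c1 window held none of these letters. The GC content was 67.0% in Trh, 48.0% in Crhbp and 63.3% in Fndc3c1, against a median of 52.7% over all promoters, and the CpG counts were 28, 9 and 17 against a median of 7. These matches are a description of letters and show no factor at work.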

How the data were processed

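Bulk RNA-seq of 6 organoid libraries, 2 in each of 3 groups, was analysed. The authors trimmed paired-end reads with Trimmomatic, aligned them to mm10 with HISAT2 and counted them per gene symbol with HTSeq without strand, and the deposited values are raw counts. The annotation they used is not given in the sources used here. From these counts, genes passing filterByExpr (minimum count 10, minimum total 15) were tested in edgeR 4.0.16 (R 4.3.3) by quasi-likelihood on 1 fit of all 6 libraries with TMM scaling, and Benjamini-Hochberg adjustment of p-values covered the 15256 genes of the fit. DESeq2 1.42.0, other scalings, filters and designs, and each library left out were alternatives. The procedure was tested on simulated data. Replicates differed by more than counting error (chi-square per degree of freedom 8.50, 4.63 and 18.5), and the common biological coefficient of variation was 0.105. Symbols were matched to GENCODE M21 (24366 of 25239). All 3 promoters were found. The members and lists were chosen with earlier results of these data known. Named are the 3 genes, up to 4 called genes of each list with the largest change, family genes by role, the 5 closest genes of each, and marker genes most abundant or at 0. Some genes under this rule are not reported here.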

Additional observations from a re-analysis of the deposited data

How the results depend on the processing

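The direction of the log2 differences of Trh and Fndc3c1 was the same under every alternative that gave a value, and so was that of Crhbp in both comparisons with PD+LY. Requiring at least 10 counts in every library removed Fndc3c1 and Crhbp, so that setting gave no value for them. Without a fold threshold the called genes were 1280, 3469 and 3925 in the 3 comparisons, against 408, 1107 and 1409. With 1 library left out the counts ran from 164 to 487, 632 to 1176 and 1118 to 1391, where a lone library in a group was assumed to vary like the other groups. On the scale of log2(CPM + 1), which shrinks low levels by its construction, the difference of Trh was -3.0 in PD+LY versus 4OHT and -6.10 versus cAMP, that of Fndc3c1 -2.21, -0.67 and -2.88 in the 3 comparisons, and that of Crhbp -2.71 and -2.62 in PD+LY. Upper quartile scaling put Crhbp at -4.66 in PD+LY versus 4OHT. With 1 library left out, Trh ran from -3.26 to -3.08 in 4OHT versus cAMP, -4.00 to -3.63 in PD+LY versus 4OHT and -7.17 to -6.79 in PD+LY versus cAMP. Fndc3c1 ran from -3.51 to -2.79, -2.96 to -2.07 and -6.14 to -5.22, and Crhbp from -0.0010 to 0.22, -4.65 to -4.59 and -4.62 to -4.40. With the replicate number as a block the counts were 513, 1222 and 1481. Deviations of libraries with the same number correlated at 0.07 (cAMP with 4OHT), 0.21 (cAMP with PD+LY) and 0.06 (4OHT with PD+LY). Whether libraries with the same number shared a differentiation is not stated in the sources used here, and these values do not settle it. Of 21, 37 and 51 calls of list genes, 19, 34 and 45 held in every setting that kept all libraries and gave a value, and 12, 22 and 40 held without each library in turn. The filter of at least 10 counts in every library gave no value for 5, 8 and 15 of these calls. Few counts limit the PD+LY values of Fndc3c1 most, then those of Crhbp.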
